A study of Danio rerio with 12 samples.

Results

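The genes described here encode the subunits of the proteasome. All probe sets whose annotated symbol begins with psma, psmb, psmc, psmd or psme followed by a digit were taken, which gave 55 of the 15502 probe sets on the zebrafish array that are not controls. They stand for 46 of the 8793 genes named on the array, and 49 of the probe sets, from 44 genes, are for proteasome subunits or for chaperones that carry a subunit symbol. The other 6 probe sets match the symbol pattern but are for psme3ip1 and psmc3ip, which are not subunits. Of the 55, 52 were among the 9301 probe sets bright enough to be tested, and the 3 left out were 1 of 3 probe sets for psmc1b and both for psmc3ip.

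The proteasome is the barrel-shaped protease that destroys proteins marked with ubiquitin. Its core particle is built of rings of alpha and beta subunits, and 3 of the beta subunits carry the active sites. A regulatory cap, with a ring of ATPases at its base and a lid that removes ubiquitin, recognises, unfolds and feeds in the substrates. In mammals, interferon and immune cells replace the standard catalytic subunits by immune-type ones, and alternative activators can take the place of the cap. In neural tissue the proteasome takes part in the turnover of synaptic, cytoskeletal and signalling proteins.

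Wild type adult male zebrafish had the left optic nerve crushed behind the eye (ONX), and as the control (SHAM) their right eye was lifted from the orbit and put back without crushing its nerve. Whole eyes, with retina, lens, vitreous and the anterior and posterior segments, were collected 4, 12 and 21 days after the operation. Each of the 6 groups of treatment and day held 2 pools of 5 eyes, and each pool was measured on 1 Affymetrix array, 12 in all. The comparisons ask how subunit transcripts differ between the eye with a crushed nerve and the sham eye at each day. Values below are log2(signal + 16), always with pool 1 first and pool 2 second, and differences are ONX minus SHAM on that log2 scale. A fish supplied both kinds of eye, but no label ties a numbered ONX pool to a numbered SHAM pool.

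Several libraries stood apart from the rest of the series. The library labelled ONX day 4 pool 1 had a median of 12.86 over 18 probe sets of oocyte genes, against 4.743 to 6.393 on the other 11 arrays, although the fish are labelled male. Its Spearman correlation with the other arrays was 0.717 to 0.810. The gene gap43, a growth cone protein known to rise in fish ganglion cells that regrow their axons, read 7.65 and 7.73 in SHAM and 12.09 and 12.22 in ONX at day 4. At day 12 it read 12.68 and 7.85 in the libraries labelled SHAM and 7.95 and 12.32 in those labelled ONX, so 1 library of each label went against the day 4 pattern. At day 21 gap43 read 10.15 and 9.18 in SHAM and 7.93 and 9.38 in ONX. Photoreceptor markers (medians of 12.74 to 14.17 by array) and lens markers (12.42 to 13.94) were bright on all 12 arrays. The results are therefore given by pool, and the main counts also without the libraries in doubt.

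At day 4 the fitted signal was higher after crush for 46 of the 48 tested subunit probe sets, including all 15 of the core, compared with 44.7% of all tested probe sets. Of the 52 tested member probe sets 7 were higher after crush by the limma fit at an adjusted p of 0.05, and 0 were lower. Over all 9301 tested probe sets the shares were 5.29% higher and 11.7% lower. The 7 were psma2a, psma5, psma8 and psmb4 of the core, psmc1a and psmc3 of the ATPase ring, and the activator psme3. At an unadjusted p of 0.05, 26 of the 52 passed, all of them higher, compared with 13.6% higher and 36.9% in either direction among all tested probe sets. In 38 of the 48 tested subunit probe sets both ONX pools lay above both SHAM pools, and in 0 below. That pattern was found above in 24.1% and below in 36.1% of all tested probe sets. No test was made of the classes against each other. In whole-eye RNA, a larger share of cells rich in these transcripts and more transcript in each cell cannot be told apart.

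**Figure D1:**
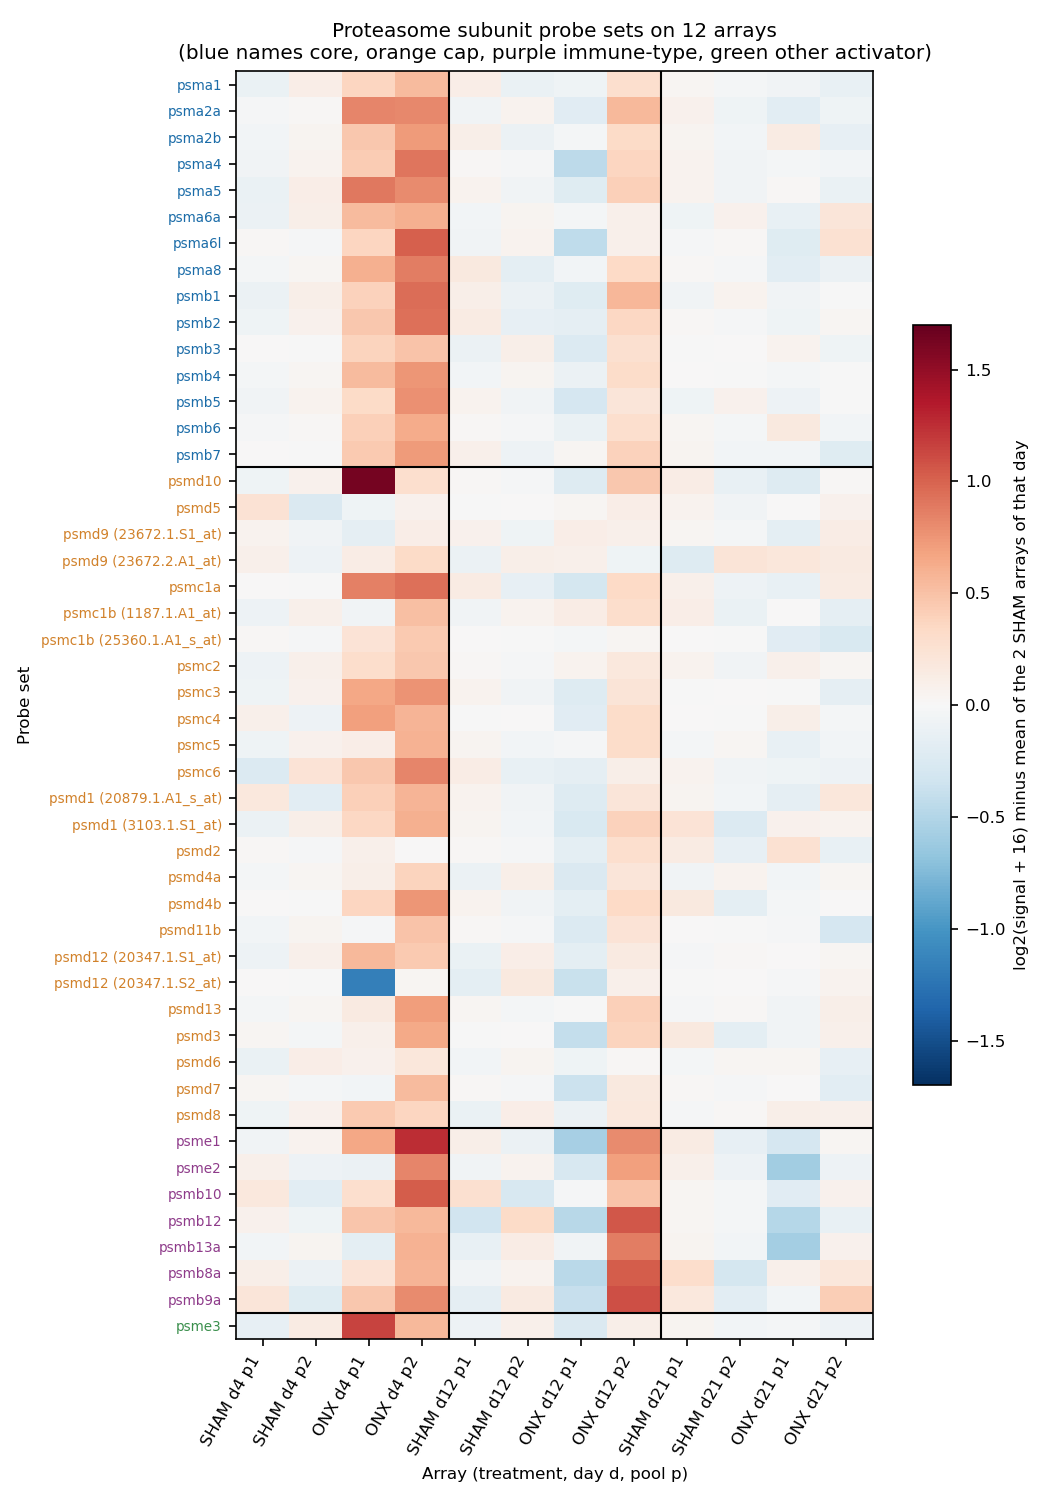
Each row is 1 of the 48 tested subunit probe sets, each column 1 of the 12 arrays, and the colour is log2(signal + 16) minus the mean of the 2 SHAM arrays of that day (red higher, blue lower). Both ONX arrays of day 4 are red for all 15 core probe sets, while at day 12 the library labelled ONX pool 2 is red and that labelled ONX pool 1 mostly pale or blue.

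The core particle showed the most uniform pattern. All 15 core probe sets, 8 for alpha and 7 for beta subunits, were higher in both ONX pools than in both SHAM pools of day 4, and all 15 had an unadjusted p under 0.05. Their differences ran from 0.44 for psmb3 to 0.85 for psma5, with a median of 0.649, equal to 1.57-fold, while the median of all tested probe sets was -0.0895. Measured by pool against the SHAM mean, the core median was 0.45 in ONX pool 1 and 0.77 in ONX pool 2. The medians of all tested probe sets were -0.218 and -0.041 in that order, so part of the gap between the pools was shared by all. Against each probe set's mean over the 12 arrays, the core median in SHAM was -0.268 and -0.192 at day 4. It was -0.00219 and -0.109 in SHAM at day 12, and -0.0642 and -0.0735 at day 21. The part of the lower SHAM level of day 4 in the difference was not tested. After adjustment over all tested probe sets 4 of the 15 passed.

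Of the alpha subunits, which form the outer rings and the gate of the barrel, psma5 had the largest difference. The probe set for psma5 read 9.41 and 9.64 in SHAM and 10.42 and 10.33 in ONX at day 4. It read 9.79 and 9.68 against 9.54 and 10.14 at day 12, and 9.73 and 9.62 against 9.70 and 9.56 at day 21. Both ONX pools of day 4 were thus above all other arrays, while the groups overlapped at days 12 and 21. The day 4 difference was 0.85 ± 0.22 (SE, n = 2 pools per group), or 1.80-fold, with an adjusted p of 0.0296.

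The signal of psma2a, another alpha subunit, was 9.73 and 9.77 in SHAM and 10.58 and 10.56 in ONX at day 4. Later values were 9.65 and 9.77 against 9.52 and 10.26 at day 12, and 9.91 and 9.77 against 9.66 and 9.76 at day 21. The ONX pools of day 4 lay within 0.1 of each other and well above both SHAM pools, a difference of 0.82 ± 0.23 (SE) and 1.77-fold with an adjusted p of 0.0377. The paralog psma2b was 10.00 and 10.10 in SHAM and 10.51 and 10.78 in ONX, a difference of 0.59 that did not pass at an adjusted p of 0.0646.

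The alpha subunit psma8, for which the gene table also gives the older name psma7, read 10.67 and 10.73 in SHAM and 11.31 and 11.57 in ONX at day 4. At day 12 its values were 11.06 and 10.74 against 10.85 and 11.24, and at day 21 10.87 and 10.83 against 10.67 and 10.75. The day 4 pools did not overlap, and the day 21 pools did not overlap in the opposite direction. The day 4 difference was 0.74 ± 0.20 (SE), 1.67-fold, with an adjusted p of 0.0330. The remaining alpha probe sets, for psma1, psma4, psma6a and psma6l, differed by 0.45 to 0.69 and did not pass.

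Among the beta subunits of the inner rings psmb4 passed, a structural subunit without an active site. Its probe set read 10.84 and 10.91 in SHAM and 11.42 and 11.63 in ONX at day 4. Day 12 gave 10.98 and 11.07 against 10.92 and 11.34, and day 21 gave 11.05 and 11.03 against 11.01 and 11.04. The day 4 gap of 0.65 ± 0.18 (SE), 1.57-fold with an adjusted p of 0.0393, stood against SHAM pools that differed by under 0.1 within every day.

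The standard catalytic subunits did not pass after adjustment but lay in the same range. For psmb5, with chymotrypsin-like activity, SHAM read 9.51 and 9.63 and ONX 9.90 and 10.34 at day 4, a difference of 0.55 ± 0.22 (SE) with an adjusted p of 0.103. For psmb6, the caspase-like subunit, the values were 10.62 and 10.66 against 11.05 and 11.28, a difference of 0.52 ± 0.19 and an adjusted p of 0.0797. For psmb7, the trypsin-like subunit, they were 10.54 and 10.53 against 10.99 and 11.25, a difference of 0.58 ± 0.19 and an adjusted p of 0.0586. The groups did not overlap in any of the 3, and ONX pool 2 was the higher pool each time. The same held for psmb1, psmb2 and psmb3, with differences of 0.67, 0.70 and 0.44.

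**Figure D2:**
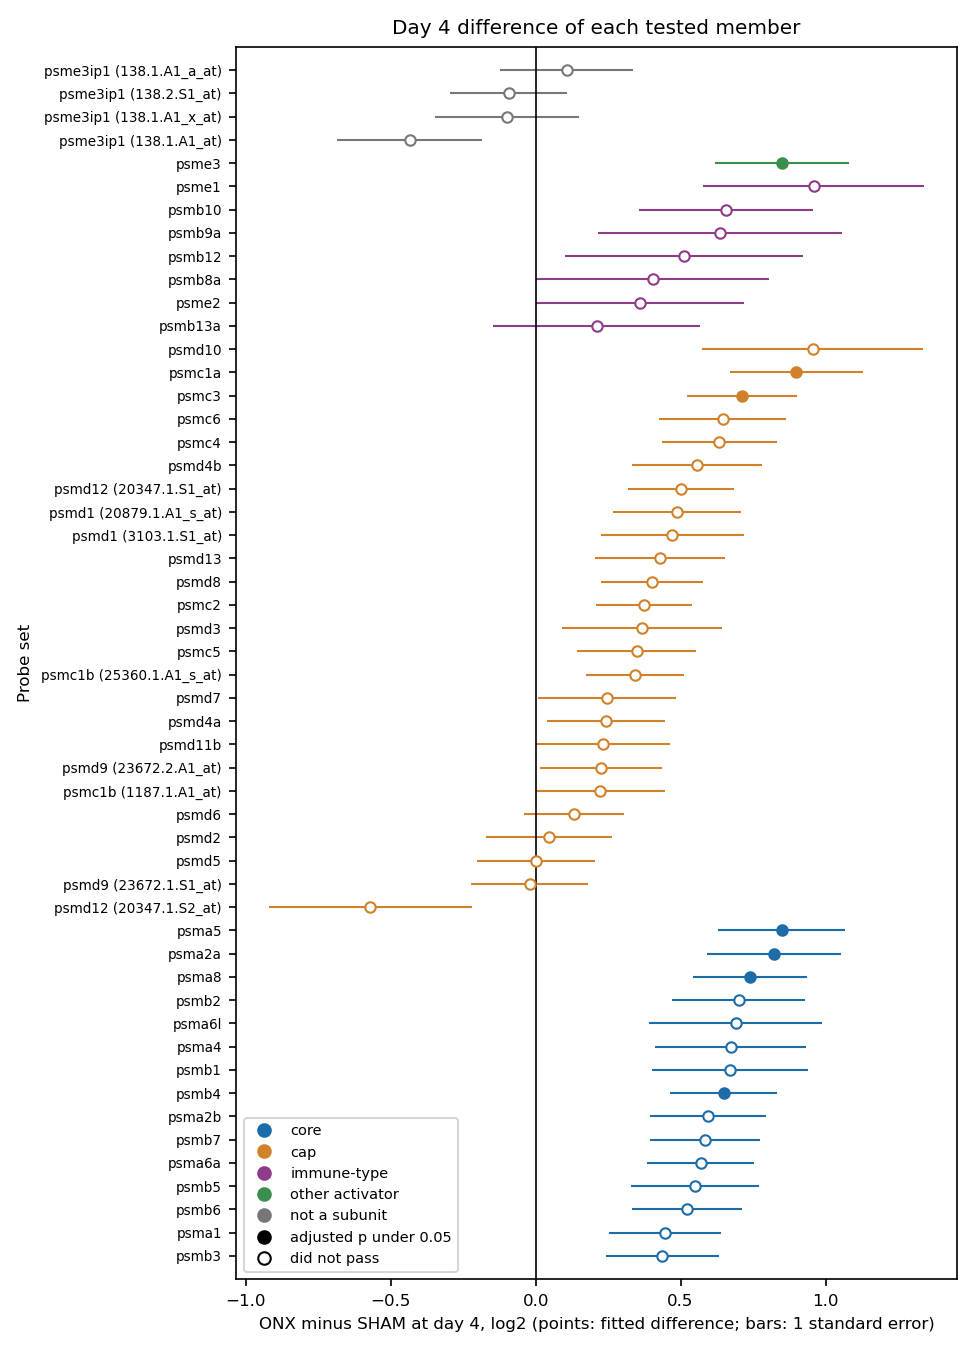
Points are the fitted ONX minus SHAM difference at day 4 on the log2 scale for the 52 tested member probe sets, bars are 1 standard error, colours mark the class and filled points have an adjusted p under 0.05. The 15 core probe sets sit between 0.44 and 0.85, the cap with its assembly chaperones runs from -0.57 to 0.96, and the immune-type members lie to the right of 0 with longer bars.

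The regulatory cap was less even than the core. Of 25 tested cap probe sets, from 21 genes, 2 were called higher, 9 had an unadjusted p under 0.05, and 17 had both ONX pools above both SHAM pools at day 4. All 9 were higher, beside 13.6% higher and 36.9% in either direction among all tested probe sets. Of all tested probe sets 5.29% were called higher, and 24.1% had both ONX pools above both SHAM pools. The count of 2 called of 25 is near the former share. The differences ran from -0.57 to 0.96, with a median of 0.366, equal to 1.29-fold. The 25 include 4 probe sets of chaperones that assemble the base, which are not parts of the finished cap. Their median was 0.114, and 1 of them set the upper end of the range. The medians were 0.504 for the ATPases, 0.472 for the other base subunits and 0.306 for the lid. The largest ATPase difference was 0.90 and the lowest lid difference -0.57. By pool the cap median was 0.153 in ONX pool 1 and 0.484 in ONX pool 2, beside -0.218 and -0.041 for all tested probe sets. Both called members belong to the ATPase ring that unfolds the substrate.

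The probe set for the ATPase psmc1a read 9.85 and 9.84 in SHAM and 10.70 and 10.78 in ONX at day 4. At day 12 the values were 10.27 and 10.00 against 9.84 and 10.48, and at day 21 10.16 and 9.99 against 9.94 and 10.22. The ONX pools of day 4 were the highest of the 12 arrays, and the difference was 0.90 ± 0.23 (SE), 1.87-fold, with an adjusted p of 0.0291, the smallest of the 52. The paralog psmc1b differed by 0.22 and 0.34 on its 2 tested probe sets, neither of which passed, and its remaining probe set was too dim to be tested.

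For psmc3, another ATPase, SHAM read 10.47 and 10.61 and ONX 11.19 and 11.30 at day 4. It read 10.80 and 10.69 against 10.53 and 10.96 at day 12, and 10.74 and 10.76 against 10.74 and 10.59 at day 21. The pools were apart at day 4 alone, with a difference of 0.71 ± 0.19 (SE), 1.64-fold, and an adjusted p of 0.0324. The ATPases psmc4 and psmc6 had differences of 0.63 and 0.65 and just missed the threshold at adjusted p of 0.0517 and 0.0652, while psmc2 and psmc5 differed by 0.37 and 0.35.

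In the rest of the cap nothing passed. Of the other base subunits, the ubiquitin receptor psmd4b differed by 0.56 and its paralog psmd4a by 0.24, the scaffold psmd1 by 0.49 and 0.47 on 2 probe sets, and psmd2, which docks ubiquitin shuttles, by 0.05. In the lid, psmd3, psmd6, psmd7, psmd8, psmd11b and psmd13 lay between 0.13 for psmd6 and 0.43 for psmd13. The 2 probe sets for the lid subunit psmd12 disagreed. One read 10.02 and 10.19 in SHAM and 10.65 and 10.55 in ONX, and the other 7.97 and 7.95 against 6.79 and 7.99. The low value of the second came from ONX pool 1 alone, and neither passed (0.50 and -0.57, adjusted p of 0.0798 and 0.258).

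Chaperones that assemble the cap's base also carry psmd symbols, and 0 of their 4 probe sets passed. The largest difference among the probe sets counted with the cap was that of the chaperone psmd10, known as gankyrin in mammals, but it rested on 1 library. It read 8.30 and 8.44 in SHAM and 10.00 and 8.65 in ONX at day 4, 8.42 and 8.39 against 8.19 and 8.86 at day 12, and 8.78 and 8.54 against 8.44 and 8.68 at day 21. ONX pool 1 of day 4, the library with the oocyte transcripts, was more than 1 unit above every other array, and the difference of 0.96 ± 0.38 (SE) had an adjusted p of 0.1004. The part of the oocyte transcripts in it was not tested. The chaperones psmd5 and psmd9 differed by 0.00 for psmd5 and by -0.02 and 0.22 on the 2 probe sets of psmd9.

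The immune-type subunits were all on the higher side at day 4 but 0 of 7 passed by limma, and 1 of 7, psme1, had an unadjusted p under 0.05. Among all tested probe sets 5.29% were called higher, and 13.6% were higher at an unadjusted p under 0.05. The counts of 0 and 1 of 7 are near these shares. Their median difference was 0.511, equal to 1.42-fold, between the medians of the core and the cap. Both ONX pools lay above both SHAM pools in 5 of the 7, compared with 24.1% of all tested probe sets. The ONX pools of day 4 differed more than in the core and the cap. The median was 0.28 in ONX pool 1 and 0.807 in ONX pool 2, beside -0.218 and -0.041 for all tested probe sets. The median standard error was 0.381 against 0.201 in the core, but the fit shares this spread over all days. The median gap between the immune-type ONX pools was 0.596 at day 4 and 1.37 at day 12, so the day 12 libraries also enter the day 4 tests. In the gene table psmb8a, psmb13a, psmb12 and psmb9a are neighbours on one chromosome, with psmb10, psme1 and psme2 on others.

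The activator subunits psme1 and psme2 form a ring that opens the core and is inducible by interferon gamma in mammals. The signal of psme1 was 9.37 and 9.50 in SHAM and 10.10 and 10.69 in ONX at day 4. It was 9.49 and 9.30 against 8.83 and 10.20 at day 12, and 9.71 and 9.44 against 9.29 and 9.61 at day 21. The day 4 pools were apart, by 0.96 ± 0.38 (SE), with a 95% interval of 0.11 to 1.81 and an adjusted p of 0.0996. At day 12 the libraries labelled ONX held both its highest and its lowest value of that day.

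The partner psme2 read 10.31 and 10.13 in SHAM against 10.12 and 11.05 in ONX at day 4. Day 12 gave 9.81 and 9.93 against 9.60 and 10.58, and day 21 gave 10.43 and 10.26 against 9.76 and 10.26. ONX pool 1 of day 4 did not exceed SHAM while pool 2 exceeded every other array, and the difference was 0.36 with an interval of -0.44 to 1.16.

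Of the inducible catalytic subunits, psmb8a corresponds to psmb5. It read 9.03 and 8.82 in SHAM and 9.16 and 9.50 in ONX at day 4, 8.51 and 8.64 against 8.12 and 9.61 at day 12, and 9.17 and 8.57 against 8.95 and 9.06 at day 21. The day 4 difference was 0.40 with an interval of -0.49 to 1.30, and its highest array was the library labelled ONX pool 2 of day 12.

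The counterpart of psmb6 is psmb9a, with 8.16 and 7.74 in SHAM and 8.41 and 8.76 in ONX at day 4. It read 7.36 and 7.68 against 7.13 and 8.62 at day 12, and 8.13 and 7.79 against 7.91 and 8.38 at day 21. The day 4 pools did not overlap, but the difference of 0.64 had an interval of -0.30 to 1.57. The counterpart of psmb7 is psmb10, with 8.91 and 8.55 in SHAM and 9.01 and 9.76 in ONX at day 4. It read 9.12 and 8.58 against 8.83 and 9.34 at day 12, and 9.23 and 9.16 against 9.01 and 9.27 at day 21. Its day 4 difference was 0.66 with an interval of -0.01 to 1.32 and an adjusted p of 0.142, and most of it came from ONX pool 2.

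The 2 further beta-type genes beside psmb8a and psmb9a did not pass at day 4 either. The values of psmb12 were 8.82 and 8.67 in SHAM and 9.22 and 9.29 in ONX at day 4, 8.27 and 8.91 against 8.12 and 9.65 at day 12, and 9.26 and 9.19 against 8.74 and 9.09 at day 21. Those of psmb13a were 8.09 and 8.19 against 7.97 and 8.74 at day 4, 7.64 and 7.90 against 7.71 and 8.64 at day 12, and 8.46 and 8.38 against 7.84 and 8.50 at day 21. The psmb12 pools were apart at day 4 (0.51, interval -0.40 to 1.42) and apart the other way at day 21, whereas those of psmb13a overlapped at day 4 (0.21, interval -0.58 to 1.00). For 6 of the 7 immune-type members the interval of the day 4 difference held 0, and for all 7 it reached above the core median.

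**Figure D3:**
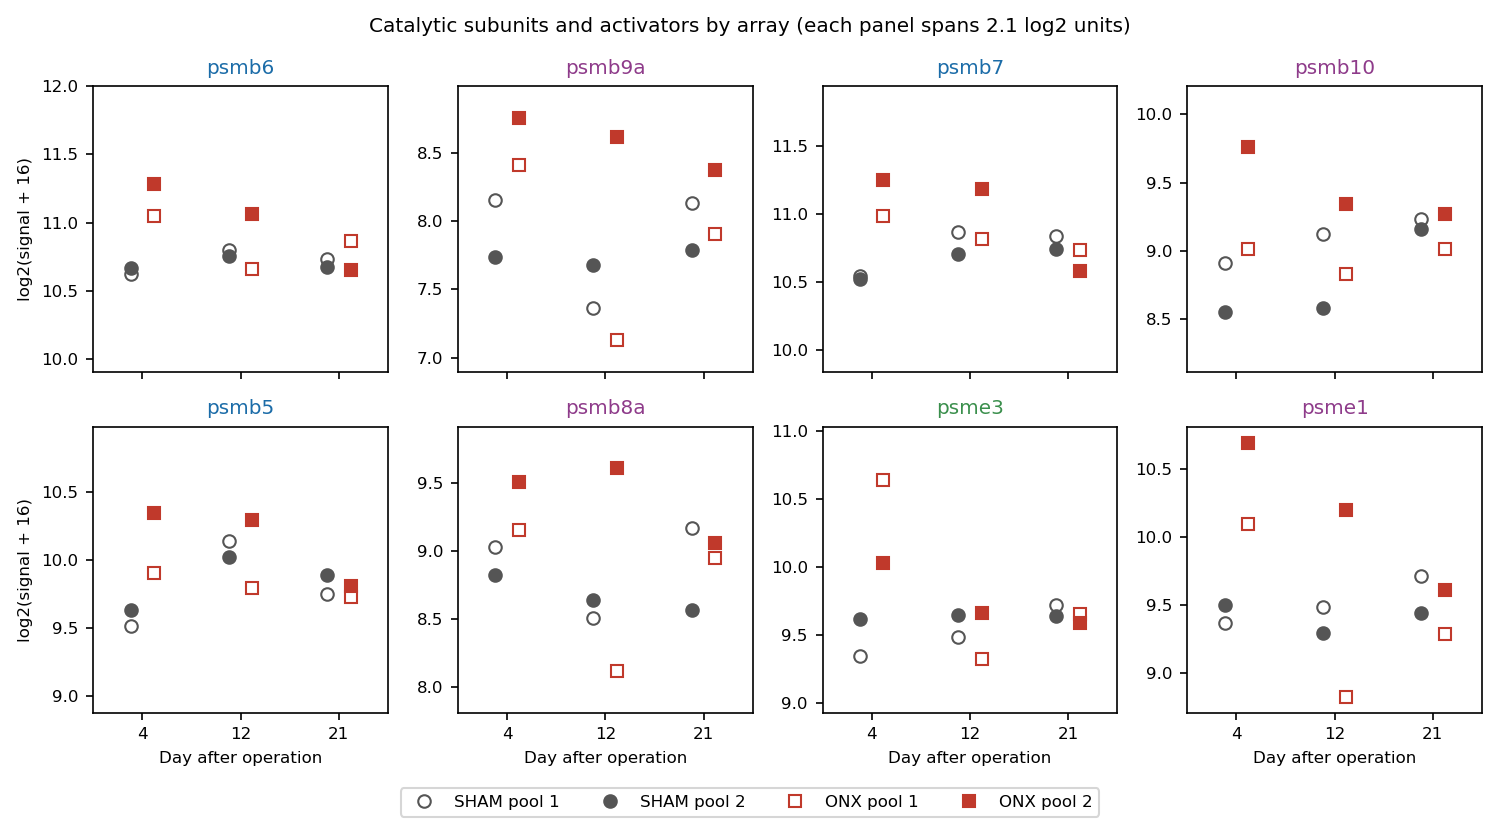
Each panel shows log2(signal + 16) on the 12 arrays by day after the operation for a standard catalytic subunit (blue names), its inducible counterpart or psme1 (purple) and psme3 (green), with circles for SHAM, squares for ONX, open symbols for pool 1 and filled symbols for pool 2. The standard subunits psmb5, psmb6 and psmb7 have both ONX squares above both SHAM circles at day 4, and psmb9a, psmb8a and psme1 have the ONX squares far apart at day 12, with the circles between them.

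Markers of microglia and macrophages, which express immune-type subunits in mammals, are given beside these values. The median of 16 such probe sets was 7.878 and 8.348 in SHAM and 8.549 and 10.23 in ONX at day 4, and 4 of 14 tested were called higher. It was 8.887 and 8.058 in the libraries labelled SHAM and 8.194 and 9.225 in those labelled ONX at day 12, and 8.652 and 8.281 against 8.096 and 8.833 at day 21. ONX pool 2 of day 4 thus had the highest median for these markers, with the library labelled ONX pool 2 of day 12 next. Measured against each probe set's mean over the 12 arrays, the immune-type medians had the same order, with 0.699 and 0.571. Against the SHAM mean of the day they were 0.807 and 0.874. The core (0.527 and 0.297) and the cap (0.352 and 0.219) had the same 2 highest arrays by the mean over 12. That order was thus not particular to the immune-type class. The SHAM libraries were ordered differently: at day 12 pool 1 was above pool 2 for the markers and below it for the median of the immune-type subunits. Of the T and B cell list 2 probe sets were found, and 0 passed the brightness limit. The median of 25 cell cycle probe sets was 6.531 and 6.479 in SHAM and 9.612 and 8.59 in ONX at day 4. The higher ONX value was that of pool 1, the library with the oocyte transcripts. Over 12 photoreceptor probe sets, 11 were called lower at day 4, beside 11.7% of all tested probe sets. Their median difference was -1.16. The part of these shifts in the subunit values was not tested.

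The activator psme3, a mostly nuclear ring that does not depend on ATP in mammals, was called higher at day 4. Its probe set read 9.34 and 9.62 in SHAM and 10.64 and 10.03 in ONX at day 4. It read 9.48 and 9.64 against 9.32 and 9.66 at day 12, and 9.72 and 9.64 against 9.65 and 9.59 at day 21. Both ONX pools of day 4 were the highest of the 12 arrays. Against the SHAM mean, pool 1 stood at 1.15 and pool 2 at 0.547. Pool 1 is the library with the oocyte transcripts, and their part in the psme3 value was not tested. The order of the pools was the reverse of that in 40 of the 48 subunit probe sets. Among all 9301 tested probe sets pool 2 was the higher in 6002. The difference was 0.85 ± 0.23 (SE), 1.80-fold, with an adjusted p of 0.0348.

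Of the genes that share the symbol pattern without being subunits, psme3ip1 showed no call. Its 4 probe sets, for a protein named in mammals for its binding to PSME3, differed by -0.44 to 0.11 at day 4, and 0 passed by limma or at an unadjusted p under 0.05. For psmc3ip, a meiotic recombination factor in mammals, the brighter probe set read 4.57 and 5.16 in SHAM and 7.16 and 6.11 in ONX at day 4, between 4.40 and 5.63 on the 8 later arrays, and was too dim to be tested. Both ONX pools of day 4 were above both SHAM pools for it, and pool 1, the library with the oocyte transcripts, was the higher.

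The day 4 calls depended on the libraries. Matching counts over all tested probe sets are not given here, so the changes below are not shown to be particular to the members. The count of members called higher was 0 without SHAM pool 1, SHAM pool 2 or ONX pool 1 of day 4, and 8 without ONX pool 2 of day 4. It was 1 when any one array of day 21 was left out, psmc1a each time, and 13 when either ONX library of day 12 was left out. Where the count was 0 without a library of day 4, 10, 12 and 28 members had an unadjusted p under 0.05, in that order. Without the pool 1 libraries of day 12, whose gap43 signal went against their labels, it was 12, including the same 7 genes, and without those of day 21 as well it was 0, with 13 members at an unadjusted p under 0.05.

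At day 12 no member passed, and what stood out was a gap between the libraries labelled ONX. By limma 0 of 52 were called and 0 had an unadjusted p under 0.05, and the calls over all tested probe sets came to 0%. The median differences were 0.102 in the core, 0.0244 in the cap and 0.287 in the immune-type class, against -0.00669 for all tested probe sets. In the library labelled ONX pool 2 the medians against the SHAM mean were 0.33, 0.212 and 0.874, and in that labelled ONX pool 1 they were -0.152, -0.166 and -0.395. ONX pool 2 exceeded both SHAM pools in 44 of the 48 subunit probe sets, compared with 30.6% of all tested probe sets, and ONX pool 1 did so in 4 of 48, compared with 33.8%. Both pools lay above both SHAM pools in 4 of 48 and below in 0, compared with 7.29% and 7.48% of all tested probe sets.

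**Figure D4:**
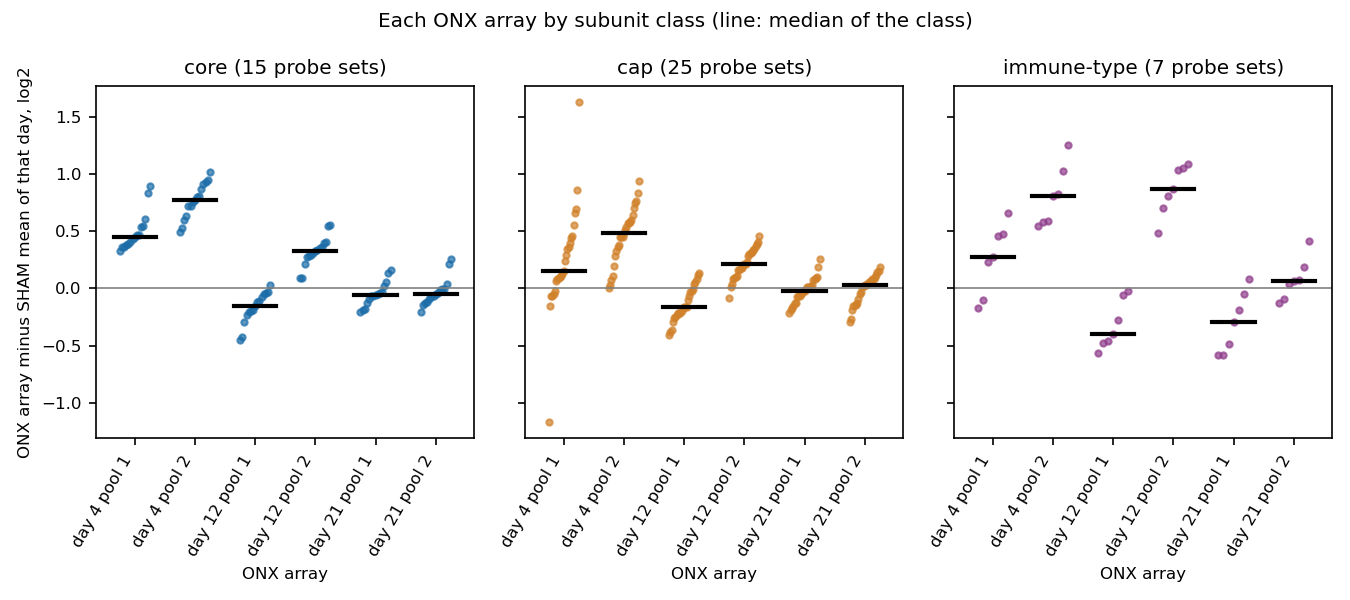
Each point is 1 tested probe set on 1 ONX array, as log2(signal + 16) minus the mean of the SHAM arrays of that day, in panels for the core, cap and immune-type classes, and the line is the class median. At day 4 the core median is 0.45 in pool 1 and 0.77 in pool 2, and at day 12 the immune-type median is -0.395 in pool 1 and 0.874 in pool 2.

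The gap43 signal of day 12 was high in SHAM pool 1 and ONX pool 2, and the order of the libraries in the subunits is given beside it. SHAM pool 1 exceeded SHAM pool 2 in 27 of the 48 subunit probe sets, compared with 4663 of all 9301. It exceeded ONX pool 1 in 40 of 48, and ONX pool 2 exceeded SHAM pool 1 in 47 of 48, compared with 4240 and 4280 of 9301. Without the pool 1 libraries of day 12 the medians were 0.404 in the core, 0.236 in the cap and 0.761 in the immune-type class, with 0 members called by limma and 4 at an unadjusted p under 0.05. The smallest p at day 12 belonged to psmb13a (0.41 ± 0.36, SE), psmb7 (0.21 ± 0.19) and psmc1b (0.22 ± 0.22), each with an adjusted p of 1.0.

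By day 21 the medians of the core and the cap were near 0, and the ONX pools of the immune-type class were split. Again 0 of 52 were called by limma, 0 had an unadjusted p under 0.05, and the calls over all tested probe sets came to 0%. The medians were -0.0331 in the core, 0.00719 in the cap and -0.126 in the immune-type class. By pool against the SHAM mean, the immune-type median was -0.289 in ONX pool 1 and 0.0685 in ONX pool 2. Those of the core were -0.0596 and -0.0476, and those of the cap -0.0249 and 0.027. Both ONX pools lay below both SHAM pools in 10 of the 48 subunit probe sets and above in 1, for psmd8, compared with 11.6% and 12.1% of all tested probe sets. For 8 of the 48 both ONX pools were above both SHAM pools at day 4 and below both at day 21, compared with 3.62% of all tested probe sets. The smallest p were those of psmc1b on 1 of its probe sets (-0.23 ± 0.17, SE), psme2 (-0.34 ± 0.36) and psmd9 (0.17 ± 0.21), each with an adjusted p of 1.0. For the core the median half-width of the 95% interval was 0.446 and for the immune-type class 0.846. These intervals are not adjusted for the number of probe sets. With 2 pools per group smaller differences were not detectable, and larger ones could go uncalled too.

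No change over the days passed a test of its own. Averaged over the 3 days, 0 members passed and 3 had an unadjusted p under 0.05, namely psma5 (0.30 ± 0.13, SE, adjusted p of 0.309), psmc1a (0.31) and psmb4 (0.25). That is fewer than the 14.9% of all tested probe sets. In the F-test of whether the crush effect differed between days 0 passed by limma and 6 had an unadjusted p under 0.05. These were psmc3, psme3, psma8, psmc1a, psma5 and psma2a, with adjusted p of 0.295 to 0.332, and their share is not above the 14.1% of all tested probe sets. Among the SHAM groups of the 3 days 0 passed and 0 had an unadjusted p under 0.05. In each of these 3 comparisons 0% of all tested probe sets were called. Over the 6 SHAM arrays the subunit probe sets ranged by 0.168 to 0.989, with a median of 0.381 and the widest range for psmb12. The day 4 effect is therefore not shown to differ from that of the later days.

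Seen over all 12 arrays, ONX pool 2 of day 4 was the highest for 32 of the 48 subunit probe sets, including 12 of 15 core, 15 of 25 cap and 5 of 7 immune-type ones. That array was the highest for 16% of all tested probe sets. ONX pool 1 of day 4 was the highest for 7 of the 48, compared with 22.8% of all tested probe sets. The 2 libraries of crushed eyes at day 4 thus carried the highest value for 39 subunit probe sets between them, with most of those in the library without the oocyte transcripts.

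Genes that build, assist or supply the proteasome were examined as lists. Over all tested probe sets 5.29% were called higher and 11.7% lower at day 4. Counts of 1 in such short lists cannot be set apart from these shares. Of the chaperones that assemble the core, 1 of 5 probe sets was called higher at day 4, and the median difference was 0.518. It was for psmg2, which read 8.82 and 8.88 in SHAM and 9.65 and 9.37 in ONX (0.66 ± 0.19, SE, adjusted p of 0.0402). Of 11 probe sets in a list of proteasome-bound factors, which also holds pitrm1 and ubl7a whose products are not known as parts of the proteasome, 1 was called higher and the median was 0.34. It was for adrm1, a ubiquitin receptor of the cap, with 9.04 and 8.98 in SHAM and 9.78 and 9.70 in ONX (0.73 ± 0.18, SE, adjusted p of 0.0264).

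Lists for steps before the proteasome held no calls by limma at day 4. Among all tested probe sets 5.29% were called higher and 11.7% lower, so few calls could be looked for in lists this short. A list of ubiquitin and activating enzymes, which also holds nedd8, uba2 and uba3 of other modifiers, had 0 of 7 called and a median of 0.0849. The 1 probe set at an unadjusted p under 0.05 was for uba2 (0.68), not for ubiquitin or uba1. It read 9.24 and 8.89 in SHAM and 10.24 and 9.25 in ONX. Only ONX pool 1, the library with the oocyte transcripts, stood clear of SHAM pool 1. The unfoldase p97 with shuttle factors had 0 of 15 called and a median of 0.00929. At an unadjusted p under 0.05 were 2, with vcp higher (0.47) and 1 probe set of ubxn1 lower (-0.54). Of 12 listed regulators of proteasome genes only 4 were found, so most were not measured here. They had 0 of 5 probe sets called and a median of 0.051, against -0.0895 for all tested probe sets. The 1 at an unadjusted p under 0.05 was for nfe2l3, with 7.93 and 7.98 in SHAM and 8.90 and 8.53 in ONX. Its difference was 0.76, with an adjusted p of 0.0595 by limma. Among all tested probe sets 36.9% had an unadjusted p under 0.05 at day 4, in either direction. Of 17 antigen presentation and interferon probe sets 4 were called higher, with a median of 0.305. They were for the peptide-trimming erap1b (1.38 ± 0.32), the calreticulins calr3a (1.25 ± 0.31) and calr3b (1.84 ± 0.46), and the cytokine signalling inhibitor socs1a (1.27 ± 0.36 on 1 of 2 probe sets). The value of erap1b was 9.50 in ONX pool 1 and 8.36 in ONX pool 2, against 7.58 and 7.53 in SHAM. Its higher value thus came from the library with the oocyte transcripts. In the same list mhc1zba (-0.42), cd74a (-0.24), cd74b (-0.18), canx (-0.13) and b2m (-0.12) had negative differences at day 4. None of these was called. Among 11 cytosolic chaperone probe sets 2 were lower, both for hsp90aa1.2 (-1.13 ± 0.25 and -0.83 ± 0.24), while the list's median was 0.291. In these 7 lists 0 probe sets were called by limma at days 12 and 21, and 0 had an unadjusted p under 0.05.

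Other scalings moved the size of the day 4 values. Scaled to the array medians, the class medians were 0.488, 0.205 and 0.35 for core, cap and immune-type, and that of all tested probe sets was -0.25. Scaled to the hybridisation controls they were 1.13, 0.84 and 0.978 against 0.373, and with the poly-A controls as the scale 1.04, 0.753 and 0.894 against 0.29. Each of these scalings shifts all probe sets of an array by nearly the same amount. The core therefore stayed above the cap, and all 3 classes above all tested probe sets. These scalings could not have changed that order and are no check of it. The count of members called higher was 0 with array medians, 36 with hybridisation controls and 0 with poly-A controls. Over all 9301 tested probe sets it was 319, 1937 and 0. Among the members, 9 and 30 members had an unadjusted p under 0.05 in the cases with 0.

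**Figure D5:**
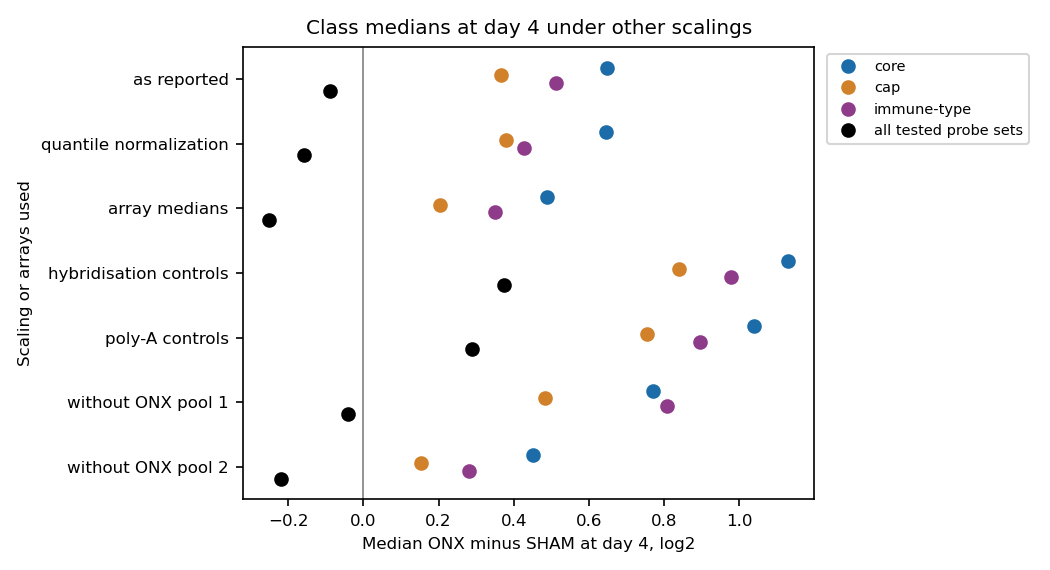
Points are the median ONX minus SHAM difference at day 4 on the log2 scale for the core, cap and immune-type classes and for all tested probe sets, under other scalings and with 1 ONX library of day 4 left out. The core median runs from 0.45 without ONX pool 2 to 1.13 with hybridisation controls, and the black points of all tested probe sets lie to the left of the class medians in every row. Scaling to array medians or controls moves all points of a row by nearly the same amount, so those rows are no check of their order.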

How the data were processed

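Signal intensities per probe set, made by the authors with MAS5 per the submitters' processing notes, were deposited as 1 table of 12 arrays with a trimmed mean of 500.1 each; the version is not given in the sources used here. The labels describe 5 eyes per pool and 8 ug of RNA. The number of arrays limits the precision. Groups follow the labels. After adding 16 and taking log2, control probe sets were left out and the upper 60% by mean over all arrays was kept (9301, limit signal 135). A single limma model (3.58.1, R 4.3.3) estimated the 6 group means with trended moderation of the variances, on 6 residual plus 4.23 prior degrees of freedom. Benjamini-Hochberg adjustment ran over all tested probe sets within each comparison, with a threshold of 0.05. P-values set a group difference against the spread between pools, which was estimated over all 6 groups with the libraries in doubt included. Symbols came from the platform annotation, and all 46 member symbols were found in RefSeq's gene table for GRCz12tu. The fit was tested on simulated data.

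The members, classes and lists were chosen with earlier results of these data known. Named with all values were members called at any day, every immune-type member, and per class the 3 largest day 4 differences; where a day had no call, the 3 smallest p; from related lists, called members, at most 4. Standard catalytic subunits, psma2b, psmd12, the genes that are not subunits and some uncalled members of related lists were added to show pairs and exceptions. Alternatives changed the offset, filter, scaling, variance model, arrays and threshold. Pools that share a number did not enter as pairs: the pool 1 minus pool 2 differences of SHAM and ONX correlated across probe sets at 0.124, -0.121 and -0.0282 at days 4, 12 and 21.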

Additional observations from a re-analysis of the deposited data

Results flagged for a closer look

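For 8 subunit probe sets both ONX pools lay above both SHAM pools at day 4 and below both at day 21. They were 8 of the 38 subunit probe sets above at day 4, beside 337 of 2242 among all tested probe sets. The day 21 differences on the log2 scale were -0.0926 for psma1, -0.13 for psma2a, -0.135 for psma8, -0.129 for psmb7, -0.228 for 1 probe set of psmc1b, -0.0866 for psmc5, -0.0843 for psmc6 and -0.306 for psmb12. The difference between these 2 days was not tested by itself, and in the F-test over all 3 days 0 members passed by limma, while 6 had an unadjusted p under 0.05, psma2a and psma8 among them. Each of the 8 day 21 differences alone had an adjusted p of 1.0.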

How the results depend on the processing

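The count of 7 members called higher at day 4 stayed within 1.5 times with an offset of 0 or 64, no filter, the upper 40%, quantile normalization, no variance trend and a robust fit. It was 0 when arrays were centred on their medians, 36 with hybridisation controls (1937 of all tested probe sets), 0 with poly-A controls, 0 with array weights, 0 with the arrays of one day alone and 17 at an adjusted p of 0.1. With the pool number as a replicate block it was 0, and 19 members had an unadjusted p under 0.05; the day 12 block with crossed numbers gave 0 calls. Of alternatives chosen after seeing the data, leaving out the pool 1 arrays of day 12 gave 12, and leaving out those of days 12 and 21 gave 0; both gave day 12 medians of 0.404 (core), 0.236 (cap) and 0.761 (immune-type). A lone array was then assumed to vary like the other groups. The day 4 cap median was 0.205 with array medians; hybridisation controls gave 1.13, 0.84 and 0.978 for core, cap and immune-type, and poly-A controls 1.04 and 0.753 for core and cap. Leaving out 1 replicate at a time, the count at day 4 ran from 0 to 13 higher and 0 to 1 lower, the average from 0 to 1 and the test between days from 0 to 2. Class medians ran from 0.45 to 0.77 (core), 0.153 to 0.484 (cap) and 0.28 to 0.807 (immune-type) at day 4, and from -0.152 to 0.33, -0.166 to 0.212 and -0.395 to 0.874 at day 12. Without ONX pool 2 of day 4 the differences of psmb13a and psme2 turned to -0.17 and -0.10, and over all single arrays left out they ran up to 0.59 and 0.83. The cause was not tested in these cases. Among the alternatives, matching counts over all tested probe sets are given above for array medians, hybridisation controls and poly-A controls alone. The other changes in count are not shown to be particular to the members. With 2 pools per group the number of arrays limits what can be detected.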

Other observations

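The lowest arrays for the subunits were not all from SHAM eyes. SHAM pool 1 of day 4 held the lowest value for 18 of the 48 tested subunit probe sets, the library labelled ONX pool 1 of day 12 for 14, and SHAM pool 2 of day 4 for 8. The remaining 8 were spread over other arrays. ONX pool 2 of day 4, ONX pool 2 of day 12 and SHAM pool 1 of day 21 held 0. Matching shares of the lowest array over all tested probe sets are not given here, so these counts are not shown to be particular to the subunits.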
